A study of Plutella xylostella with 6 samples.

Results

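The tyrosine breakdown enzymes of the diamondback moth, Plutella xylostella, were followed in whole larvae after DMNT treatment. Members were all rows of the deposited gene table whose description named one of the enzymes that make tyrosine or take it apart. The search words included the names of tyrosine aminotransferase, 4-hydroxyphenylpyruvate dioxygenase, homogentisate dioxygenase, maleylacetoacetate isomerase and fumarylacetoacetase. They found 9 genes for 6 enzymes, out of 21946 rows in all, and 8 of the 9 are described singly here. The rule used no measured value, but the members were chosen with earlier results of these data known. Whole second-instar larvae gave the RNA, with 3 libraries titled Control and 3 titled as DMNT treated, sampled at 12 hr. The treatment field of the sample records names DMNT for all 6 samples, the Control ones included, so the groups rest on the titles alone. DMNT (dimethyl-nonatriene) is a volatile homoterpene that plants release. In the feeding assays of the study it was given in forage in paraffin oil, with the oil alone as the control, but the dose and carrier for these libraries are not given separately. Eggs were purchased and no strain or genotype is named. How many larvae make up a library, and whether libraries are separate rearings, is not given either, so the p-values cover only the spread among these samples.

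Animals use tyrosine for protein, and insects also use it in quantity to darken and harden the cuticle. What is left over is burned. Tyrosine aminotransferase removes the amino group and gives 4-hydroxyphenylpyruvate, which 4-hydroxyphenylpyruvate dioxygenase (HPPD) turns into homogentisate. Homogentisate dioxygenase opens the ring, maleylacetoacetate isomerase rearranges the product, and fumarylacetoacetase splits it into fumarate and acetoacetate, which feed energy metabolism. In humans, loss of fumarylacetoacetase causes the most severe form of hereditary tyrosinaemia, because its substrate is reactive. In blood-feeding insects, whose meals are rich in protein, a block at HPPD is lethal after feeding. In Drosophila, enzymes of this route are made largely in the fat body, the organ that corresponds to liver and adipose tissue.

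Total counts were 49553028 to 56381123 in the Control and 39853422 to 54671573 in the DMNT libraries. The lowest count of any member in any library was 87, far above the 3 counts that a count of 0 allows. Counts were scaled by TMM, an adjustment for library composition, and are given as CPM, the count relative to the adjusted library total. FPKM, as deposited, also divides by transcript length. Differences were tested by the quasi-likelihood method of edgeR over 17709 genes (mean FPKM 0.5 or more), and all 9 members passed that filter. A gene was called as the study did, where its log2 fold change was 1 or more in size and its unadjusted p was below 0.05. The Control and DMNT libraries overlapped on the first principal component, which held 27.0% of the variance. In every library a count was found for 22 of 23 fat body markers, 105 of 163 midgut markers, 28 of 32 muscle markers and 98 of 110 epidermis markers.

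The most abundant gene of each early step stood above the genes of the late steps. Levels between genes are compared as FPKM. In the Control libraries HPPD LOC105385622 was the most abundant with 31.8 ± 6.71 FPKM (SD, n = 3 libraries), followed by tyrosine aminotransferase LOC105385896 with 25.3 ± 3.42 FPKM. The ranges of these genes overlapped. Both lay without overlap above the fumarylacetoacetase LOC105394266 at 7.48 ± 0.925 FPKM (SD, n = 3). Maleylacetoacetate isomerase 1 (LOC105386124) stood at 5.87 ± 0.815 FPKM, with a range that overlapped the range of that gene, and maleylacetoacetate isomerase 2 (LOC105380903) at 4.18 ± 0.987 FPKM, below the range of isomerase 1. Homogentisate dioxygenase LOC105386070 had 3.16 FPKM (1.66 to 4.66 FPKM over the 3 libraries) and was the least abundant of the steps with a single gene. The second genes for HPPD (LOC105385623, 2.52 ± 0.460 FPKM) and fumarylacetoacetase (LOC105393085, 2.26 ± 0.331 FPKM) came last, and from isomerase 2 downwards the ranges of neighbours in the order overlapped. In the DMNT libraries the fumarylacetoacetase LOC105394266, at 3.62 ± 0.251 FPKM, stood below isomerase 1 at 4.25 ± 0.0200 FPKM, without overlap.

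**Figure D1:**
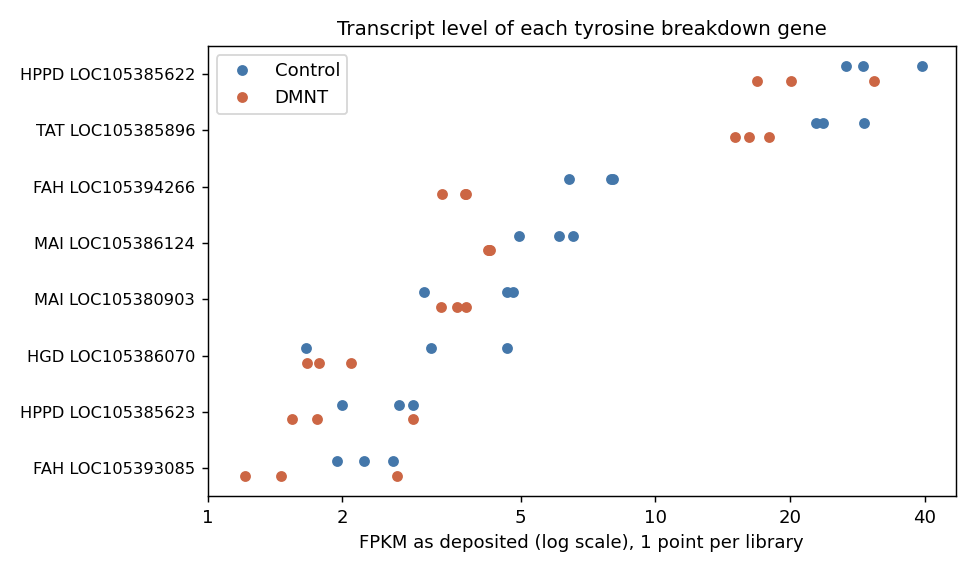
Deposited FPKM (log scale) of 8 tyrosine breakdown genes, with 1 point for each of 3 Control and 3 DMNT libraries, sorted by the Control mean. HPPD LOC105385622 and tyrosine aminotransferase lie at 15.1 to 39.4 FPKM and all other genes shown lie below 10 FPKM. TAT is tyrosine aminotransferase, HGD homogentisate dioxygenase, MAI maleylacetoacetate isomerase and FAH fumarylacetoacetase, here and in the other plots.

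All 9 members had a log2 fold change below 0 after DMNT, from -1.005 to -0.17, where 50.6% of all genes tested lay below 0. A further row, outside the search words, is annotated with the same ortholog or enzyme number as a member. It had 0.71 to 0.85 FPKM in the Control and 0.74 to 0.80 FPKM in the DMNT libraries. Its log2 fold change was 0.02, and -0.08 to 0.13 over the other fits. The median over the members was -0.45, and over all genes tested it was 0.00 after rounding. Of the 9, 1 passed the study's thresholds as lower and 0 as higher, where 0.503% and 0.367% of all genes tested did. At an unadjusted p below 0.05, 3 members were lower and 0 higher, beside 1.68% lower, 1.75% higher and 3.43% in either direction among all genes tested. A log2 fold change of -0.5 or lower was found in 4 members and in 6.05% of all genes tested. In 4 members every DMNT library lay below every Control library, and in 0 every one lay above, against 4.12% and 4.25% of all genes tested. All members were measured in the same 6 libraries, so their directions are not independent of each other. After Benjamini-Hochberg adjustment over all genes, edgeR called 0 of 9 members at 0.05, beside 0.0113% of all genes tested, while DESeq2 called 1 of 9. In whole-body RNA, fewer cells that make an enzyme and less RNA per cell cannot be told apart.

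**Figure D2:**
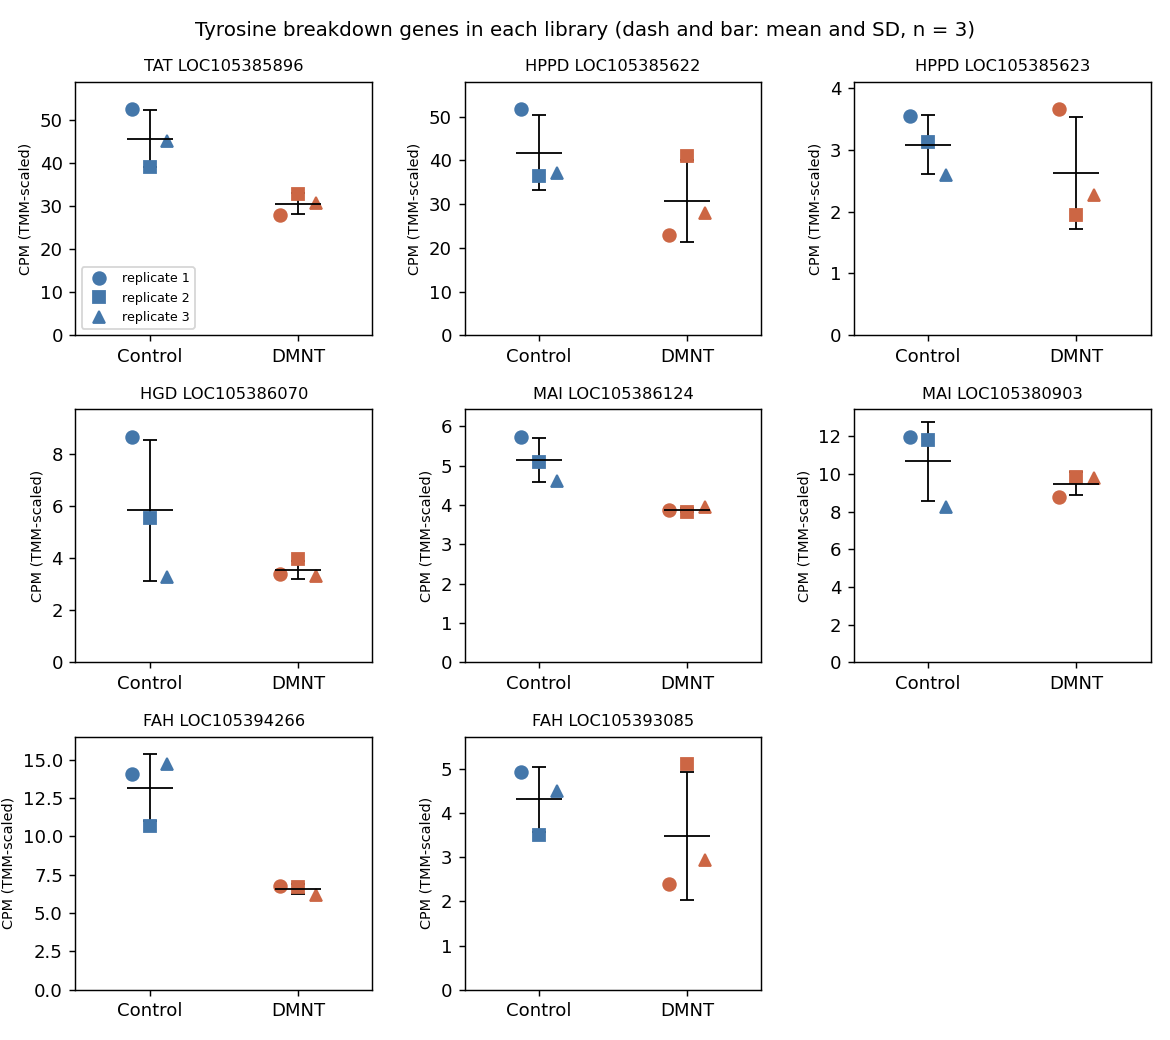
CPM after TMM scaling (linear axis from 0) of 8 members in each library, with the replicate number as the marker shape and the mean and SD of 3 libraries as a dash and bar. The groups do not overlap for tyrosine aminotransferase, isomerase 1 and the fumarylacetoacetase LOC105394266.

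The one member past the study's thresholds was a gene of the last step. Fumarylacetoacetase LOC105394266 had 14.1, 10.7 and 14.7 CPM in Control replicates 1, 2 and 3. In DMNT replicates 1, 2 and 3 it had 6.78, 6.71 and 6.18 CPM. The DMNT libraries were close together, and the highest of them was well below the lowest Control library. Its mean fell from 13.2 ± 2.18 CPM in the Control to 6.56 ± 0.329 CPM after DMNT (SD, n = 3 each). That was 50.2% less, with a log2 fold change of -1.005 and a standard error of 0.18. Its p ranked 10 of 17709 in edgeR's quasi-likelihood test, and its Benjamini-Hochberg adjusted p was 0.943. Over the other fits the adjusted p ran from 0.00443 with DESeq2 to 0.9999. The fold lay at the threshold of the study. It was -0.95 or -0.92 when Control replicate 1 or 3 was left out and -0.96 when DMNT replicate 3 was, under that threshold, each time with an unadjusted p below 0.05.

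The second fumarylacetoacetase gene, LOC105393085, did not pass. The FPKM ratio of the first gene to it was 3.10, 3.30 and 3.57 in the Control and 3.11, 1.42 and 2.28 in the DMNT libraries. An exact permutation test of that ratio gave p = 0.2 (two-sided), and 0.4 after Benjamini-Hochberg adjustment over 6 ratios. The smallest p that 3 against 3 libraries allow is 0.1. LOC105393085 had 4.94, 3.49 and 4.50 CPM in the Control and 2.38, 5.12 and 2.95 CPM in the DMNT libraries. DMNT replicate 2 was the highest of all 6 libraries for this gene, and the groups overlapped. Its log2 fold change was -0.30 (standard error 0.31), and -0.69 without DMNT replicate 2, where its unadjusted p dropped below 0.05. Both rows name the same enzyme, so reads could have been split between them. Whether they are copies of 1 locus in the older assembly was not tested, and in that case the separate fold changes would describe parts of 1 gene. The newer RefSeq annotation used for names and neighbours (ilPluXylo3.1) lists the other 8 members, and LOC105393085 was not matched in it. In that annotation LOC105394266 lies next to LOC105393090. The symbol of that neighbour is close in number to LOC105393085, but whether this reflects a shared location was not tested. With the counts of the pair summed to 1 row, a step added after seeing the data, the log2 fold change was -0.80 (standard error 0.20), short of the fold threshold.

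**Figure D3:**
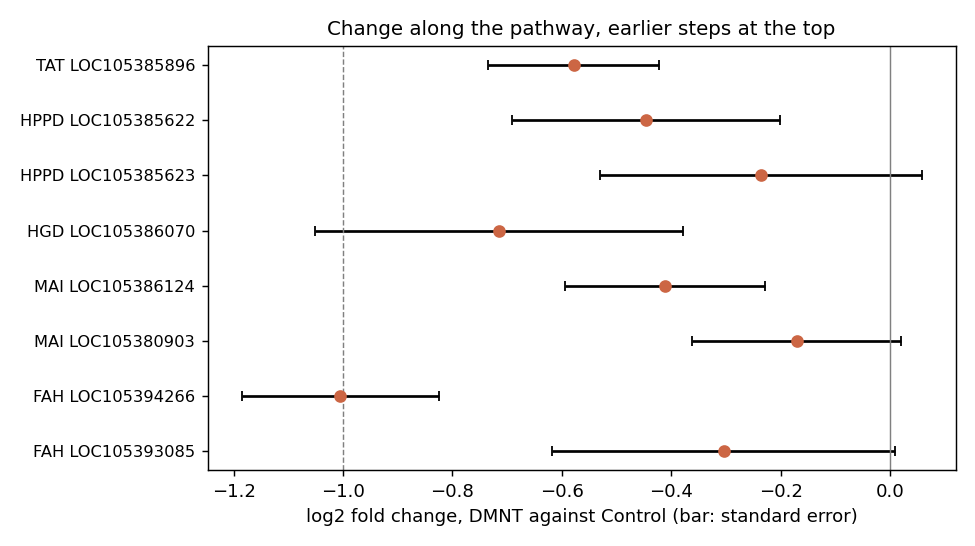
Log2 fold change of DMNT against Control with its standard error for 8 members, in the order of the pathway, the dashed line marking the study's threshold of -1. Every point lies below 0, and that of the fumarylacetoacetase LOC105394266 lies on the dashed line.

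Early in the pathway a further gene was below 0 without overlap of its groups, short of the fold threshold. Tyrosine aminotransferase LOC105385896, the step that commits tyrosine to breakdown, had 52.4, 39.2 and 45.2 CPM in the Control libraries and 28.0, 32.8 and 30.8 CPM in the DMNT libraries. The groups did not overlap. The means were 45.6 ± 6.63 CPM in the Control and 30.5 ± 2.42 CPM after DMNT (SD, n = 3 each). The log2 fold change was -0.58, with a standard error of 0.16, and edgeR's Benjamini-Hochberg adjusted p was 0.99995, as for all members but LOC105394266. The unadjusted p was below 0.05 here and in all 13 other fits, 6 of which leave out a library, with log2 fold changes from -0.68 to -0.47.

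HPPD LOC105385622, which makes homogentisate, had 51.7, 36.5 and 37.2 CPM in the Control libraries. In the DMNT libraries it had 22.9, 41.0 and 28.0 CPM. DMNT replicate 2 lay above 2 of the Control libraries, so the groups overlapped. Its log2 fold change was -0.45 (standard error 0.25), which did not pass. It was -0.71 without DMNT replicate 2, with an unadjusted p below 0.05, and -0.26 and -0.27 without Control replicate 1 and DMNT replicate 1. The second HPPD gene, LOC105385623, lies next to it in the newer annotation and was about an order of magnitude lower. It had 3.54, 3.12 and 2.59 CPM in the Control and 3.65, 1.94 and 2.27 CPM in the DMNT libraries. The neighbours differed in which library was high: DMNT replicate 1 was the lowest library for LOC105385622 and the highest for LOC105385623. The FPKM ratio of the first gene to the second ranged from 5.87 in DMNT replicate 1 to 19.97 in DMNT replicate 2. The log2 fold change of LOC105385623 was -0.24 (standard error 0.29), and -0.55 without DMNT replicate 1 to -0.05 without DMNT replicate 2.

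Homogentisate dioxygenase LOC105386070, which opens the aromatic ring, was the most variable member in the Control libraries, at 8.68, 5.57 and 3.29 CPM. The DMNT libraries had 3.41, 3.97 and 3.31 CPM. Control replicate 3 was at the level of the DMNT libraries and was the lowest of all. The coefficient of variation was 46.3% in the Control and 9.88% in the DMNT libraries. The log2 fold change was -0.71 (standard error 0.34) and did not pass at an unadjusted p of 0.05 by edgeR, while DESeq2 gave one just below 0.05. It was -0.31 without Control replicate 1, and -0.999 without Control replicate 3, with an unadjusted p then below 0.05 and a fold just short of the threshold.

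The isomerase step has 2 genes. Isomerase 1 (LOC105386124) had 5.74, 5.10 and 4.62 CPM in the Control and 3.86, 3.82 and 3.94 CPM in the DMNT libraries. The groups did not overlap, and the DMNT libraries spanned a narrow range. Its log2 fold change was -0.41 (standard error 0.18), with an unadjusted p above 0.05 by edgeR. The unadjusted p was below 0.05 in 2 of the 13 other fits, those with limma. Isomerase 2 (LOC105380903) had 12.0, 11.8 and 8.26 CPM in the Control and 8.80, 9.85 and 9.81 CPM in the DMNT libraries, with overlap. Its log2 fold change was -0.17 (standard error 0.19), and -0.08 without Control replicate 1 to -0.33 without Control replicate 3. Enzymes of this kind belong to the glutathione transferase superfamily.

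The members did not vary in the same way over the libraries. Control replicate 1 was the highest library for 6 of the 9 members, and DMNT replicate 1 the lowest for 4. Within the DMNT group, replicate 2 was the highest for 6 members. For tyrosine aminotransferase and HPPD LOC105385622 the order within the DMNT group was the same, with replicate 2 above replicate 3 above replicate 1. Isomerase 2 and the second fumarylacetoacetase LOC105393085 had that order too. The fumarylacetoacetase LOC105394266 did not share that order. Its FPKM ratio to tyrosine aminotransferase was 0.276, 0.280 and 0.335 in the Control and 0.249, 0.210 and 0.206 in the DMNT libraries. The ratios did not overlap (exact permutation test, two-sided, p = 0.1, the smallest that 3 against 3 libraries allow, and 0.4 after Benjamini-Hochberg adjustment over 6 ratios compared). The other 5 ratios, among them that of LOC105394266 to HPPD LOC105385622, gave exact permutation p-values of 0.2 to 0.8. Summed over all members, the FPKM was 122.8, 99.2 and 93.8 in the Control and 59.8, 86.3 and 68.0 in the DMNT libraries, again without overlap. HPPD LOC105385622 held 28.3% to 35.7% of that sum and tyrosine aminotransferase 20.8% to 25.3%, so the abundant genes weigh heavily in it. The medians of the members' deviations from their own means were 0.41, 0.17 and 0.08 on the log2 scale in the Control and -0.41, -0.14 and -0.28 in the DMNT libraries.

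**Figure D4:**
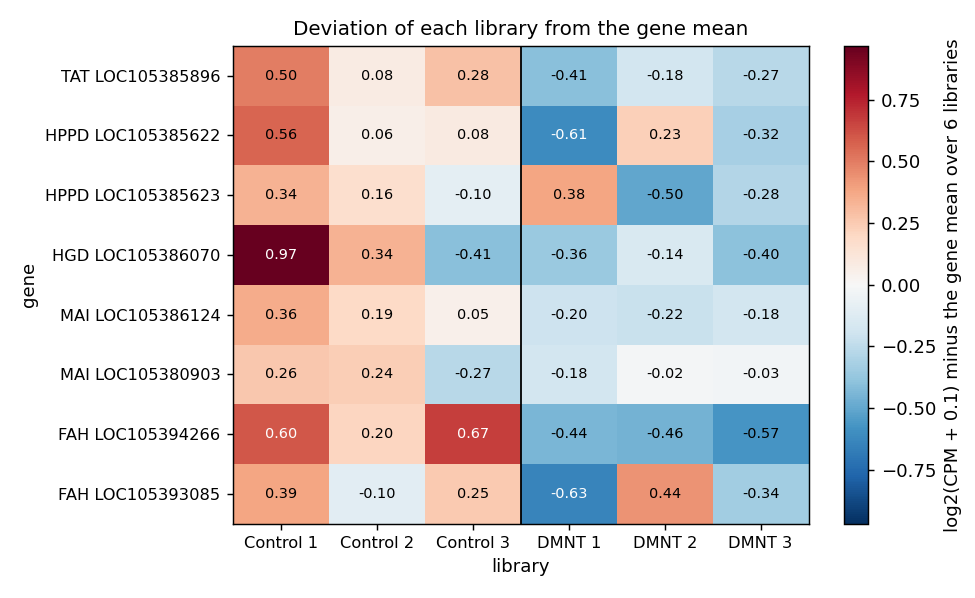
Deviation of log2(CPM + 0.1) from the gene's mean over the 6 libraries, for 8 members (rows, in pathway order) and library (columns, Control left of the line, DMNT right), printed in each cell. Control replicate 1 is above the mean for all 8 genes shown and DMNT replicate 3 below it for all 8, while DMNT replicate 2 is above it for 2.

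Enzymes that supply tetrahydrobiopterin were looked at beside the pathway. This cofactor is made from GTP and is needed for dopa synthesis. All 6 such genes had a log2 fold change below 0, with a median of -0.25 (-0.35 to -0.23 over the other fits). None passed the study's thresholds. The main edgeR fit gave 0 with an unadjusted p below 0.05, and the other fits gave 0 to 2 (2 with DESeq2). GTP cyclohydrolase 1 (LOC105390169), the first enzyme of the route, was at -0.72 on the log2 scale (standard error 0.32). Another row of that enzyme, GTP cyclohydrolase 1-like (LOC105393140), was at -0.58 (standard error 0.27), and in both rows the groups overlapped. Dihydropteridine reductase-like (LOC105383939), which recycles the cofactor, was at -0.30 (standard error 0.13), with no overlap between its groups.

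Genes for the other uses of tyrosine lay on both sides of 0. Of 26 that lead to melanin and tanned cuticle, 14 lay below and 12 above, with a median of -0.04 (-0.13 to 0.10 over the other fits), and 0 passed the study's thresholds. One gene was higher at an unadjusted p below 0.05, the major royal jelly protein 1-like gene LOC105395722 of the yellow family, at 0.69 (standard error 0.25). Aromatic-L-amino-acid decarboxylase (LOC105382593), which makes dopamine from dopa, was at 0.69 (standard error 0.30), while a second gene of that description (LOC105380305) was at -0.41 (standard error 0.27) and protein yellow (LOC105395711) at -0.48 (standard error 0.23). The pair of genes on the route to octopamine, tyramine beta-hydroxylase (LOC105397436) and a dopamine beta-hydroxylase-like gene (LOC105395691), stood at -0.01 and 0.11.

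**Figure D5:**
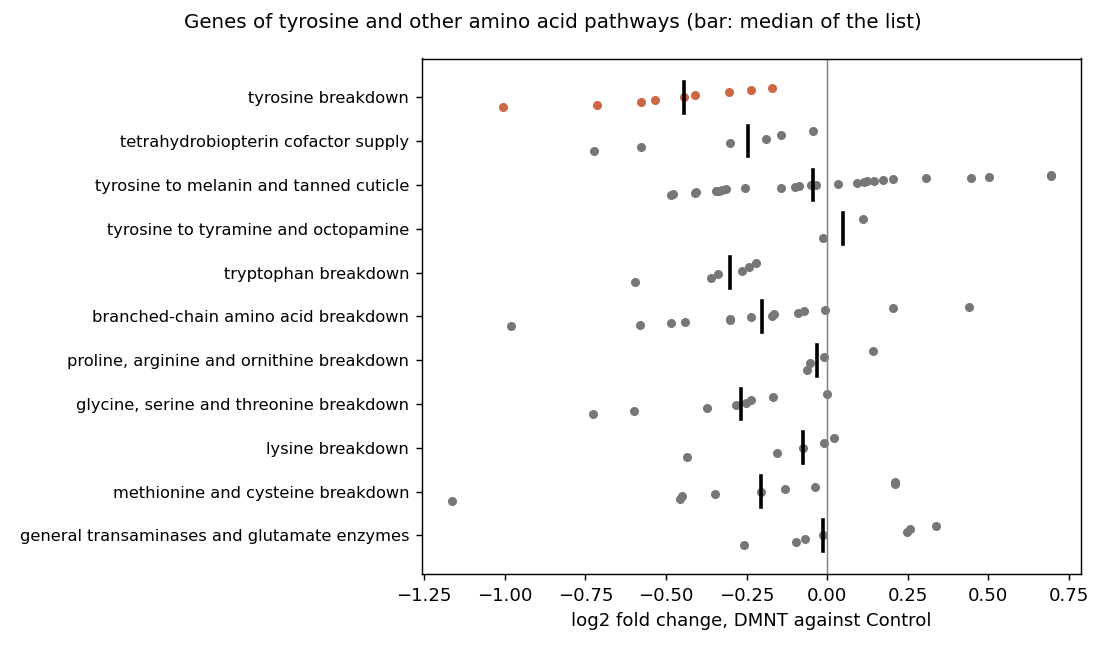
Log2 fold change of DMNT against Control for each tested gene of the tyrosine breakdown enzymes and of other pathways of tyrosine and amino acids, with 1 point per gene and a bar at the median of each list. The median of the tyrosine breakdown genes is -0.45, and those of the other lists lie between -0.30 and 0.05.

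Markers of the fat body were looked at beside these enzymes. Of 21 tested genes of storage proteins, lipid carriers, transferrins and lipid droplet proteins, 13 lay above 0 and 8 below, with a median log2 fold change of 0.15. One passed the thresholds as higher, the storage protein gene LOC105388111 (log2 fold change 1.56, standard error 0.65). That gene averaged 1.16 FPKM, with 15 counts in Control replicate 3, and was not tested with the filter at a mean FPKM of 2. No fat body marker was higher at an unadjusted p below 0.05 with that filter, the replicate block or limma on log2(FPKM + 0.1). The same held without DMNT replicate 1 or 3. The summed level of the fat body markers was 1622 to 3594 FPKM in the Control and 732 to 4600 FPKM in the DMNT libraries. Of these markers 22 of 23 had a count in every library. The sum was highest in DMNT replicate 2 and lowest in DMNT replicate 3, and most of it came from a pair of arylphorin genes. Over the other fits the median was -0.16 (without DMNT replicate 2) to 0.46. Among the fat body markers with the smallest p, basic juvenile hormone-suppressible protein 2-like (LOC105388120, mean 1.41 FPKM) was at 1.31 (standard error 0.61). Basic juvenile hormone-suppressible protein 1-like (LOC105381553, mean 2.92 FPKM) was at 0.91 (standard error 0.67). Lipid storage droplets surface-binding protein 2 (LOC105384097), a coat protein of fat droplets, was at -0.35 (standard error 0.21). The groups overlapped for each of these genes. The 5 tested blood cell markers all had a log2 fold change below 0 (3 of 5 without DMNT replicate 1, 4 of 5 without DMNT replicate 3). Their median was -0.30, and -0.43 (without DMNT replicate 2) to -0.14 (without Control replicate 2) over the other fits, with a summed level of 29.8 to 69.95 FPKM in the Control and 16.4 to 56.15 FPKM in the DMNT libraries. Muscle markers had a median of 0.15, with 24 of 27 above 0 and 3 below. Testis markers had a median of 0.25, with 27 of 34 above 0 and 7 below. In both lists 0 passed the thresholds. By edgeR, 6 testis markers were higher at an unadjusted p below 0.05, beside 1.75% of all genes tested. That count was 0 without Control replicate 2 and 0 without DMNT replicate 1. The part of these tissues in the result was not tested.

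Genes whose profile over the libraries was most like that of the fumarylacetoacetase LOC105394266 were found by the root-mean-square difference of centred log2(CPM + 0.1) over the 6 libraries, among 7267 described genes (mean FPKM 2 or more). The nearest was cytochrome b5-related protein-like (LOC105382289), at a difference of 0.116, with 5.09, 3.44 and 4.93 CPM in the Control and 2.17, 2.52 and 2.45 CPM in the DMNT libraries. It was followed by an inosine-uridine preferring nucleoside hydrolase-like gene (LOC105390447, 0.140), a facilitated trehalose transporter Tret1-like gene (LOC105381246, 0.166), prostaglandin E synthase 2 (LOC105398014, 0.190) and abl interactor 2-like (LOC105397746, 0.215). Tyrosine aminotransferase LOC105385896 was the 6th nearest, at 0.241. Of the other members, isomerase 1 was 66th and HPPD LOC105385622 189th of 7267. The second fumarylacetoacetase LOC105393085 was 659th, HPPD LOC105385623 1464th, homogentisate dioxygenase 1550th and isomerase 2 2200th. All profiles share the depth and scaling of the same libraries, so the distances are a description. They include the difference between the groups, so a gene with a similar fold change tends to lie near by construction.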

How the data were processed

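The 6 RNA-seq libraries (whole larvae, second instar) were grouped by title, 3 Control and 3 DMNT. Per its methods, the study made poly(A) libraries with dUTP, trimmed and filtered reads (cutadapt), mapped them (Hisat, an NCBI genome of the species) and used StringTie for assembly and quantification. The deposited table gives read counts per gene as whole numbers without normalization. Its FPKM columns were computed by the authors from exon length and mapped fragments. The program that made the counts, the tool versions and whether strand was used are not given in the sources used here. Columns named CK were read as the Control libraries.

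The 17709 genes whose FPKM averaged 0.5 or more were tested with edgeR 4.0.16 (TMM, glmQLFit, glmQLFTest) in R 4.3.3 without covariates. Standard errors were taken as the size of the log2 fold change over the root of its F statistic. Alternatives were DESeq2 1.42.0, upper-quartile scaling, no filter, a filter at a mean FPKM of 2, limma 3.58.1 on log2(FPKM + 0.1) and log2(FPKM + 1), a block for the replicate number, and each library left out in turn. No 2 libraries agreed within sampling noise (15 pairs, mean chi-square per gene 51.8 to 145), so none was merged. Intervals from depth cover counting error only. Members and lists (11 other lists of amino acid pathways, 1 of them without a match, and 9 of tissue markers, all by words in the descriptions) were chosen with earlier results of these data known. Rows of other proteins that the words matched by accident were removed from the fat body and midgut lists after seeing the table. Named genes are the members, except 1 that is not reported here, up to 4 with the smallest p in each other list, and the 5 most like LOC105394266 in profile. Of 17515 LOC symbols, 10548 are in the newer annotation, which was used for names and neighbours only. No sequences were used here.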

Additional observations from a re-analysis of the deposited data

How the results depend on the processing

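All 9 members kept a log2 fold change below 0 in every one of the 13 other fits. The call of the fumarylacetoacetase LOC105394266 sat on the fold threshold, and the members past the study's thresholds numbered 0 in place of 1 with upper-quartile scaling (-0.99 for the gene), with limma on log2(FPKM + 1) (-0.87), which shrinks low genes, and with the replicate block (-0.99). Leaving out 1 library gave 0 to 1, with -1.14 to -0.92 for the gene (-0.95 and -0.92 when Control replicate 1 or 3 was left out, -0.96 when DMNT replicate 3 was), and summing it with LOC105393085 gave -0.80. Its unadjusted p was under 0.05 in all of these. Members lower at an unadjusted p under 0.05 numbered 3 in the main fit and 4 with DESeq2 and with each limma fit. With 1 library left out they numbered 2 to 5 (5 without DMNT replicate 2). The median of the members was then -0.69 to -0.31 (-0.69 without DMNT replicate 2). Over all genes, those past the study's thresholds numbered 154, 240 with no filter, 84 with a mean FPKM of at least 2, 82 with limma on log2(FPKM + 1), and 162 to 271 with 1 library left out. The filters change how many genes are tested, and otherwise the cause was not tested. Same-numbered libraries deviated together only weakly (r = 0.08, 0.07 and 0.13 across genes), although each library correlated best with its own number. Control and DMNT replicate 3 also had the lowest mean chi-square per gene of the 15 pairs (51.8). The pairs of replicates 1 and 2 had 92.9 and 74.3. The main fit does not take the number as a pairing, and whether it marks a batch is not given. With the replicate block 897 genes in place of 608 had an unadjusted p under 0.05, 0 in place of 2 passed an adjusted p of 0.05, and the log2 fold change of tyrosine aminotransferase kept an unadjusted p under 0.05. A search of the members' promoters for motifs was not run, since no sequences were used here. Each member had at least 87 counts in each library.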

Other observations

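Other routes of amino acid breakdown were listed in the same way. In the breakdown of glycine, serine and threonine, 3 of 8 genes were lower at an unadjusted p under 0.05 by edgeR's quasi-likelihood test (1 without Control replicate 1 or DMNT replicate 1, 5 without DMNT replicate 2), where 1.68% of all genes tested were, and 0 passed the study's thresholds. They were glycine dehydrogenase (LOC105393928), the core enzyme of glycine cleavage, at -0.73 (standard error 0.23), glycine N-methyltransferase (LOC105387574), which uses up surplus methyl groups, at -0.60 (standard error 0.24), and alanine--glyoxylate aminotransferase 2-like (LOC105384463) at -0.37 (standard error 0.15). In each of the 3 the groups did not overlap. The list's median was -0.27, and -0.47 to -0.18 over the other fits.

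Of 14 genes for branched-chain amino acids 12 had a log2 fold change below 0, with a median of -0.20 (-0.28 without DMNT replicate 2 to -0.09 without DMNT replicate 1), and 1 was lower at an unadjusted p under 0.05, the cytosolic aminotransferase LOC105397953 at -0.44 (standard error 0.16), with no overlap between its groups. That count was 0 without Control replicate 1 and 0 without DMNT replicate 1. All 6 tested genes of tryptophan breakdown lay below 0 (5 of 6 without Control replicate 1 or DMNT replicate 1). Their median was -0.30 (-0.42 without DMNT replicate 2 to -0.17 without DMNT replicate 1). At an unadjusted p under 0.05 there were 0, and 1 without Control replicate 2 or Control replicate 3. Tryptophan 2,3-dioxygenase-like (LOC105391182), the first enzyme of that route, was at -0.36 (standard error 0.26). The lists for lysine (5 tested genes, median -0.07), methionine and cysteine (9 genes, -0.21), proline, arginine and ornithine (4 genes, -0.03), and general transaminases with glutamate enzymes (7 genes, -0.01) had 0 genes at an unadjusted p under 0.05 by edgeR's quasi-likelihood test and 0 to 1 lower in the other fits, DESeq2 among them. The medians of the last 3 of these lists changed sign in some fits. The remaining tissue lists had medians of 0.06 (99 midgut genes, 3 lower and 4 higher at an unadjusted p below 0.05), -0.01 (31 Malpighian tubule genes), -0.10 (98 epidermis genes), 0.00 after rounding (6 silk gland genes) and 0.07 (24 neuron genes). The epidermis median ran from -0.31 to 0.19 over the other fits and lay above 0 without Control replicate 3 (0.19) or DMNT replicate 1 (0.15), and 0 to 12 of its genes were lower at an unadjusted p below 0.05.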
